A study of Mus musculus with 6 samples.

Results

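The proteasome subunit genes were the mouse genes whose symbols are Psma, Psmb, Psmc, Psmd or Psme followed by a number. They were found by symbol among the probe sets that the platform annotation ties to a single gene. Of 18193 genes with such a probe set, 42 were proteasome genes, read by 88 probe sets. Each gene was read from its brightest probe set, judged by the mean of all 6 arrays. Psme2 was the one listed gene without a probe set of its own, because the probe set that reads it also names Psme2b. The 42 genes were 8 alpha and 7 constitutive beta subunits of the core, 4 beta subunits of the immunoproteasome and thymoproteasome, 6 ATPases, 11 other subunits and 3 assembly chaperones of the regulatory particle, and 3 activators.

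The arrays came from mouse mesenchymal stem cells of a commercial supplier, grown in dishes in the presence of rosiglitazone (1 µM), insulin (5 µg/ml), isobutylmethylxanthine (100 µM) and dexamethasone (1 µM), a mixture commonly used to turn such cells into fat cells and added again 48 h before exposure. The study ran 3 independent experiments. Each set 1 dish under a continuous terahertz laser beam (2.52 THz, wavelength 118.8 µm) for 2 h and 1 unexposed dish next to it as the control, both at 26 to 27 °C and both brought to the same stage of differentiation beforehand. RNA was taken as soon as exposure ended and read on 1 Affymetrix array per culture, which gave 3 irradiated and 3 control arrays. Controls carried the differentiation mixture and the low temperature too, and no culture without them was analysed here.

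The proteasome is the protease that breaks down proteins tagged with ubiquitin. Its barrel-shaped core consists of rings of alpha subunits, which form the gate, and rings of beta subunits, some of which carry the cutting sites. A regulatory particle caps the barrel, binds ubiquitin chains, removes them and feeds the unfolded protein in with its ATPases. Interferon-gamma makes many cells replace the cutting subunits with those of the immunoproteasome, which favours peptides for presentation on MHC class I, and proteasome genes are induced together by the transcription factor Nfe2l1 when the protease is inhibited. Damaged and heat-denatured proteins are among its substrates.

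The median of an array was 5.01 to 5.05 (log2). An array has no read depth, and with 3 pairs it is their small number that sets the error. Of 10 measured mesenchymal markers 9 lay at or above the median gene level of 6.46, with the collagen Col1a2 at 13.69, the filament protein vimentin (Vim) at 13.43 and Thy1 at 3.88. All 7 measured fat cell markers lay above it too, led by the lipid carrier Fabp4 at 14.36. So did all 11 macrophage markers, among them lysozyme (Lyz2) at 14.17, the receptor Csf1r at 12.78 and the pan-leukocyte gene Ptprc at 9.82, whereas 0 of 7 lymphocyte, 0 of 6 endothelial and 1 of 6 epithelial markers did. The control array of experiment 3 stood apart in RNA quality. Its 3' minus 5' value was 0.68 for actin and 0.11 for Gapdh, where the other arrays lay between 0.50 and 0.57 for actin and between -0.10 and -0.08 for Gapdh. In these bulk samples, fewer cells of a type and less RNA per cell cannot be told apart.

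Transcripts of the constitutive core and of the regulatory particle were bright in every culture. The values that follow are RMA levels on the log2 scale. They depend on the probes too, so they place a gene on the array and give no ratio between genes. Of the 42 genes 40 lay at or above the median gene level (background over all genes, 50%) and 28 at or above a level of 10. The alpha subunits Psma2 (12.26), Psma3 (12.23), Psma6 (12.18), Psma5 (11.89), Psma1 (11.76), Psma4 (11.10) and Psma7 (10.84) all lay at percentile 94.3 of all genes or above. Psma8, which replaces Psma7 in male germ cells, was the exception at 5.96, below the median gene.

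Among the constitutive beta subunits, the structural Psmb4 (11.97), Psmb3 (11.93), Psmb1 (11.88) and Psmb2 (10.89) and the catalytic Psmb6 (11.54) and Psmb5 (11.12) lay as high on the array, and the catalytic Psmb7 lay at 9.06. The immunoproteasome subunits Psmb10 (9.18), Psmb8 (9.04) and Psmb9 (8.15) all lay well above the median gene, at percentiles 81.9, 80.3 and 69.4 of all genes. Psmb11, the thymus counterpart of Psmb5, lay at 3.43, at percentile 13.5.

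The ATPases occupied a narrow band, with Psmc2 at 11.27, Psmc3 at 11.10, Psmc4 at 10.95, Psmc6 at 10.76, Psmc1 at 10.69 and Psmc5 at 10.53. The other regulatory subunits ran from the deubiquitinase Psmd14 (11.78) through Psmd6 (11.47), Psmd8 (11.38), Psmd1 (11.27), the ubiquitin receptor Psmd4 (11.18), Psmd2 (11.01), Psmd11 (10.95), Psmd12 (10.39), Psmd13 (9.85) and Psmd7 (9.72) to Psmd3 (9.49). The assembly chaperones Psmd5 (8.84), Psmd10 (8.65) and Psmd9 (8.51), which leave the particle once it is built, lay lower, with a median of 8.65. Of the activators, which open the gate without ubiquitin, Psme4 lay at 10.33, Psme1 at 9.66 and Psme3 at 7.90. The plot of levels by subunit group shows these bands.

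**Figure D1:**
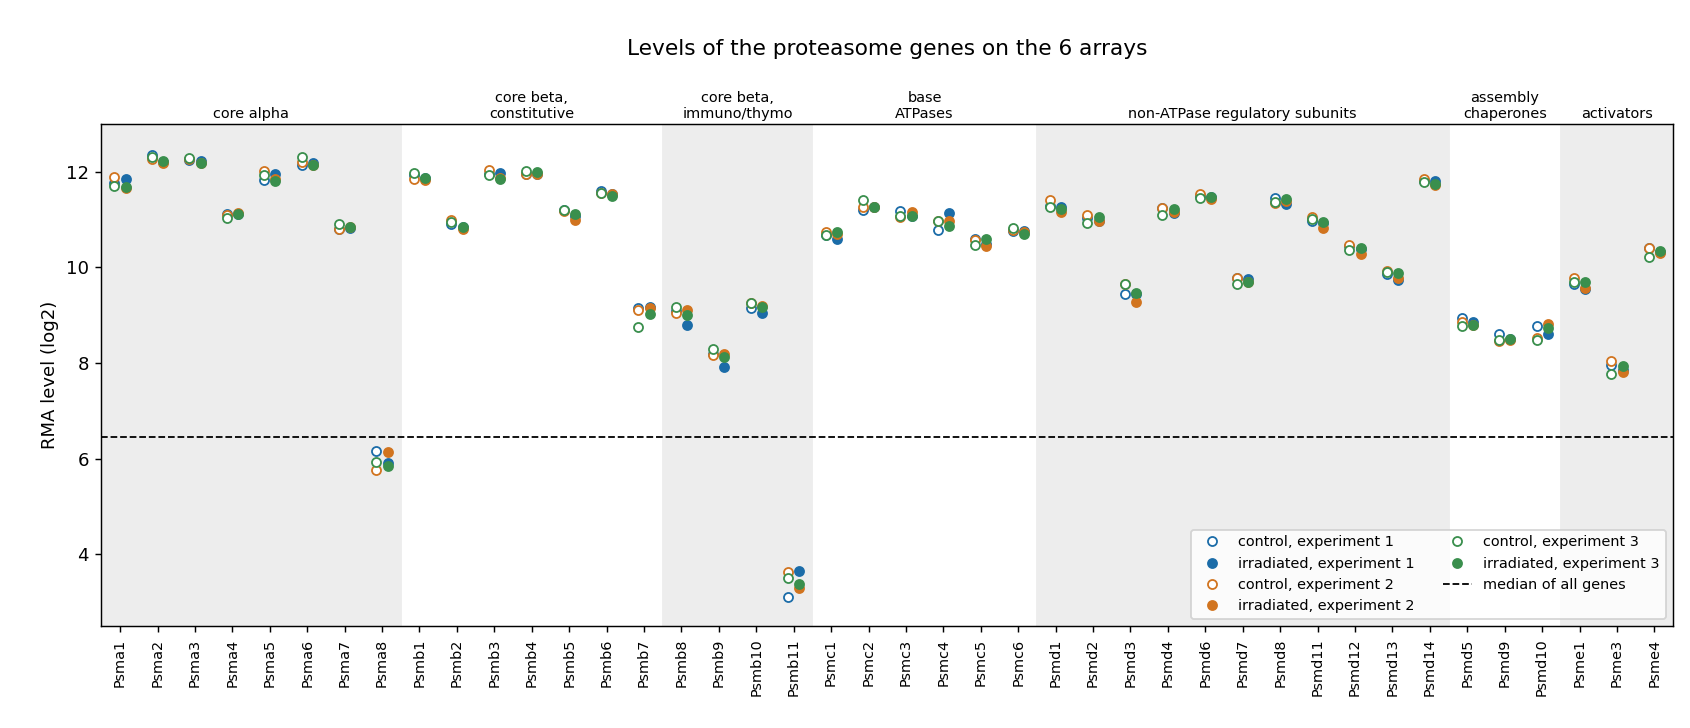
RMA level (log2) of each of the 42 proteasome genes on the 6 arrays, ordered by subunit group, with open circles for controls, filled circles for irradiated cultures, 1 colour per experiment and a dashed line at the median of all genes. Psma8 (5.96) and Psmb11 (3.43) are the 2 genes below that line, and for most genes the control and irradiated points overlap at this scale.

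Irradiation was not followed by a difference past the threshold in any proteasome gene. In limma, blocked by experiment, 0 of 42 genes were called at a Benjamini-Hochberg adjusted p under 0.05 (background 0% of 18193 genes), and each of them had an adjusted p of 0.995. At an unadjusted p under 0.05 limma gave 0 of 42 proteasome genes, where the background was 3.31% (1.42% higher and 1.89% lower), and the smallest unadjusted p was 0.0972, for Psmd3. An ordinary paired test without moderation also called 0 of the 42 after adjustment, with 3 at an unadjusted p under 0.05 (Psma2, Psmb6 and Psmb10; 7.14%, background 4.33% in the same test). Nothing says that cells of the 3 experiments came from different animals, so these p-values measure the spread between experiments of this line.

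The 95% confidence intervals were narrow for most members. Their half-width had a median of 0.20 log2 units, or 1.15-fold. All 42 intervals lay within 1.5-fold in either direction, where 98.3% of all genes did, and 39 of 42 (92.9%) lay within 1.3-fold, where 81.5% did. The outermost bounds were 0.748-fold for Psmd3 and 1.34-fold for the dim Psmb11.

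Most members had a mean slightly below 0. Of 42 genes 35 had a negative mean difference (83.3%, background 53.3%) and 7 a positive one (16.7%, background 45.2%). The median was -0.053 log2 units, and that of all genes was -0.010. With the arrays centred on their medians 33 of 42 were negative. Among bright genes, at a level of 10 or above, 25 of 28 proteasome genes (89.3%) were negative against 54.0% of all such genes. The median over the 42 genes was -0.055, -0.070 and -0.040 in experiments 1 to 3, where that of all genes was -0.030, -0.010 and 0. Centring removed irradiated-minus-control shifts of -0.07, 0.03 and 0.01. In experiment 1 that shift was wider than the median of the 42 genes. Before centring, 29, 29 and 25 genes were below 0. The shares were 69.0, 69.0 and 59.5% of the proteasome genes against 56.4, 50.1 and 48.5% of all genes. Subunits of 1 complex share arrays and may vary together, so these counts carry no test. Without experiment 2 the median was -0.028 with 29 genes below 0, and without experiment 1 it was -0.060 with 30. Without experiment 3, whose control stood apart in RNA quality, it was -0.063 with 34. For these settings and for centred arrays, here and in the subunit groups below, no share of all genes below 0 is given.

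Of the 42 genes 10 were lower in all 3 experiments (23.8%, background 12.8%) and 1, Psmb7, was higher in all 3 (2.38%, background 8.23%). In 6 genes every irradiated array lay below every control array (14.3%, background 5.36%), namely Psma2, Psma3, Psmb2, Psmb5, Psmb6 and Psmd11. All 6 are among the 28 at a level of 10 or above (21.4%, background 5.40% of genes at that level). The converse held for 0 genes (background 2.90%). Differences were small throughout, with 31 of 42 means within 0.1 log2 units of 0, as the plot of differences shows.

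**Figure D2:**
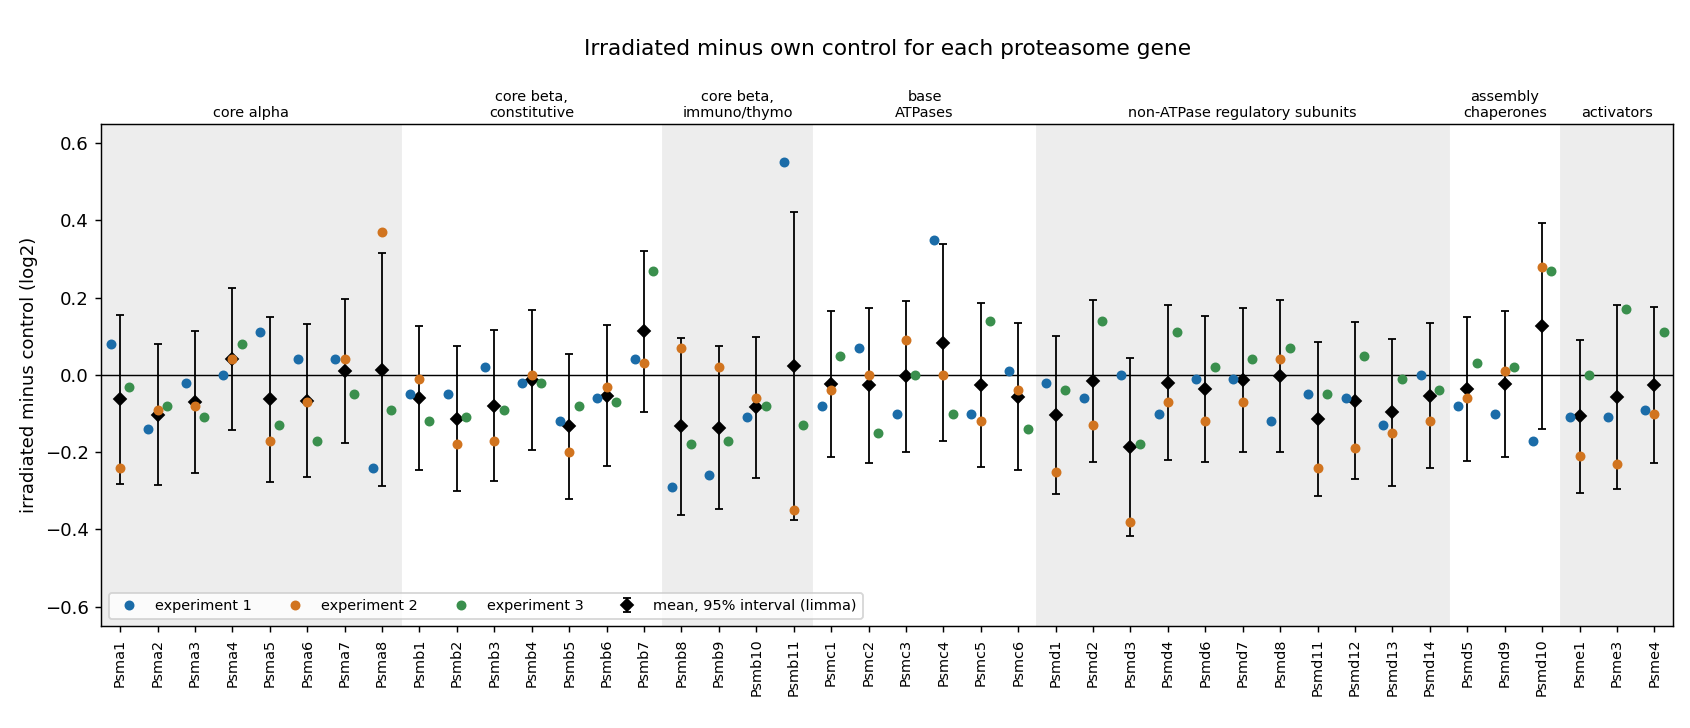
Irradiated minus own control (log2) for each proteasome gene, with coloured points for experiments 1 to 3 and black diamonds with bars for the mean and its 95% limma interval. All 42 intervals include 0, 35 of 42 means lie below 0, and the largest mean on either side is -0.19 for Psmd3 and 0.13 for Psmd10.

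The alpha subunits had a median difference of -0.063 log2 units, with 5 of 8 means below 0. The median was -0.038 without experiment 2 and -0.023 without experiment 3, and -0.031 with all probe sets of each gene averaged. Psma2, the brightest of them, read 12.34, 12.27 and 12.31 in the controls of experiments 1 to 3 and 12.20, 12.18 and 12.23 in the irradiated cultures. The groups did not overlap, yet the mean difference of -0.10 (SE 0.076, 95% interval -0.29 to 0.079) did not pass in limma. Psma3 read 12.24, 12.26 and 12.29 in the controls and 12.22, 12.18 and 12.18 after irradiation, again without overlap and with a mean difference of -0.070 (SE 0.077). Psma1, Psma5 and Psma6 were above their control in experiment 1 (by 0.08, 0.11 and 0.04) and below it in experiments 2 and 3. Psma4 (mean 0.040) and Psma7 (0.010) stayed within 0.08 of 0 in each experiment. The dim Psma8 read 6.15, 5.76 and 5.94 in the controls and 5.91, 6.13 and 5.85 in the irradiated cultures, with no shared direction.

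Of the 7 constitutive beta subunits 6 had a mean below 0, with a median of -0.060, and Psmb7 lay above 0. Psmb5 carries the chymotrypsin-like site, the main target of proteasome inhibitor drugs. It read 11.19, 11.18 and 11.20 in the controls, a spread of 0.02, and 11.07, 10.98 and 11.12 after irradiation. Every irradiated array was lower than every control, with a mean difference of -0.13 (SE 0.078, 95% interval -0.32 to 0.054, unadjusted p 0.134 in limma). Psmb6, which carries the caspase-like site, read 11.59, 11.56 and 11.55 in the controls and 11.53, 11.53 and 11.48 in the irradiated cultures. Its groups did not overlap either, and the mean difference was -0.053 (SE 0.076).

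Psmb7, which carries the trypsin-like site, ran the other way. It read 9.14, 9.11 and 8.76 in the controls and 9.18, 9.14 and 9.03 after irradiation. The low value is that of the control of experiment 3, the array that stood apart in RNA quality, and without that experiment the mean difference was 0.035 in place of 0.11 (SE 0.087). The part of RNA quality in this value was not tested. Psmb2, a structural subunit, read 10.90, 10.99 and 10.95 in the controls and 10.85, 10.81 and 10.84 after irradiation, with groups that did not overlap and a mean difference of -0.11 (SE 0.079). The brightest, Psmb4, was the steadiest of all 42 genes, at 11.96, 11.96 and 12.01 in the controls and 11.94, 11.96 and 11.99 in the irradiated cultures, with an SD of 0.025 over the 6 arrays. Psmb1 and Psmb3 had means of -0.060 and -0.080.

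The 3 immunoproteasome subunits all had negative means. Psmb8, the counterpart of Psmb5, read 9.09, 9.04 and 9.18 in the controls and 8.80, 9.11 and 9.0 after irradiation, a mean difference of -0.13 (SE 0.096). Psmb9, the counterpart of Psmb6, read 8.18, 8.17 and 8.29 in the controls and 7.92, 8.19 and 8.12 after irradiation, a mean difference of -0.14 (SE 0.088). These 2 genes kept the same pattern, lower in experiments 1 and 3 and level or slightly higher in experiment 2, and their groups overlapped. Psmb10, the counterpart of Psmb7, read 9.15, 9.26 and 9.26 in the controls and 9.04, 9.20 and 9.18 after irradiation. It was lower in all 3 experiments by 0.06 to 0.11, but a control of experiment 1 below 2 irradiated arrays made the groups overlap (mean -0.083, SE 0.076). Without experiment 2 the means were -0.24 for Psmb8 and -0.22 for Psmb9, and without experiment 1 they were -0.055 and -0.075. Psmb11 read 3.10, 3.64 and 3.51 in the controls and 3.65, 3.29 and 3.38 after irradiation, the widest spread of the 42 genes at a level near the bottom of the array.

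**Figure D3:**
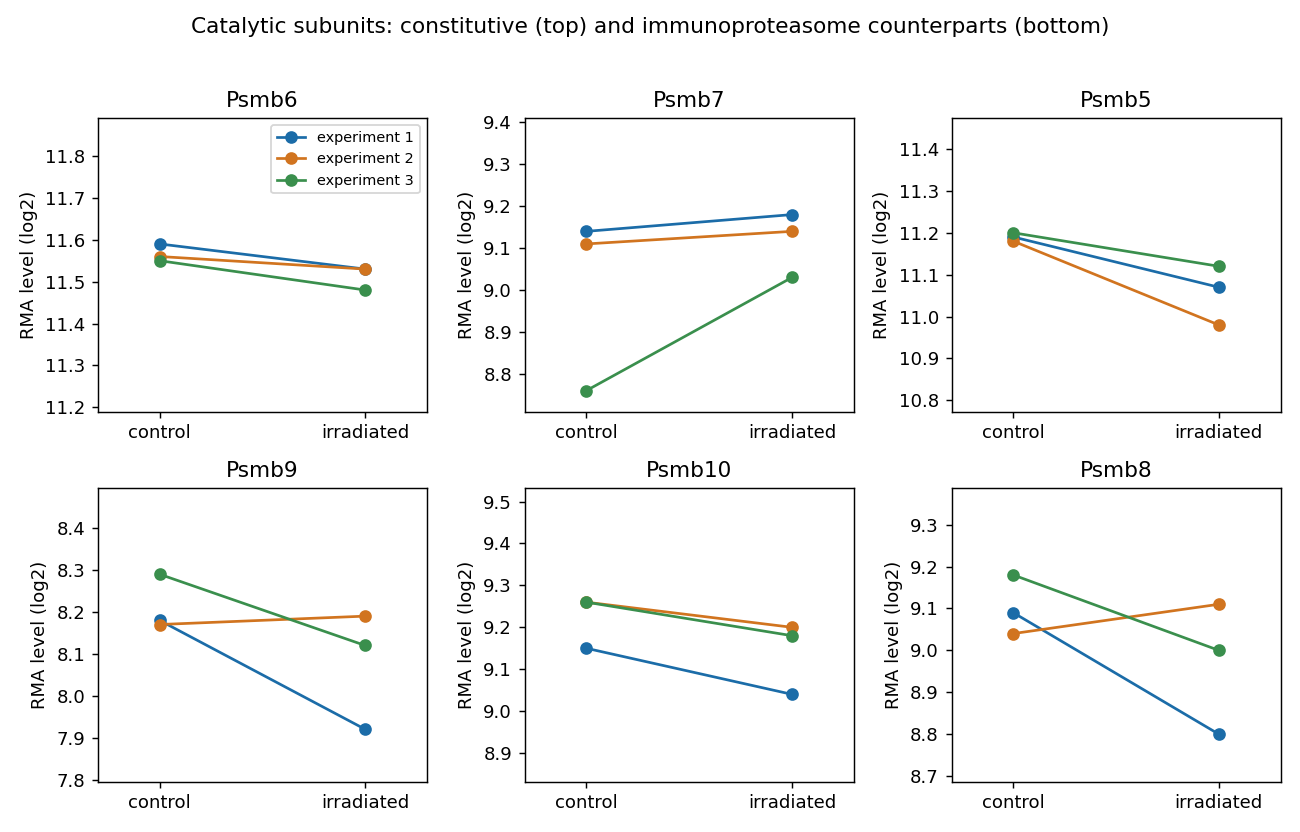
RMA level (log2) of the 3 constitutive catalytic subunits (top row) and of the immunoproteasome subunits that replace them (bottom row, same column) in control and irradiated cultures, with 1 line per experiment and 0.7 log2 units on each vertical axis. The irradiated point of Psmb5 and Psmb6 lies below its control in all 3 experiments, Psmb7 has a low control in experiment 3 (8.76), and Psmb8 and Psmb9 lie below their control in experiments 1 and 3 and above it in experiment 2.

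Psmb8 and Psmb9 lie beside the peptide transporter genes Tap1 and Tap2 on chromosome 17, in the order Psmb9, Tap1, Psmb8, Tap2. Both transporters, picked after their values were seen, were lower in all 3 experiments (background 12.8%), unlike Psmb8 and Psmb9. Tap1 was lower by 0.03, 0.18 and 0.25 and Tap2 by 0.16, 0.14 and 0.13. Their mean differences were -0.15 (SE 0.084) and -0.14 (SE 0.076), and neither passed in limma. Of 15 measured genes of antigen processing and interferon-gamma signalling 11 had a mean below 0 (background 53.3%), with a median of -0.030. In this list 1 gene (background 3.31%) had an unadjusted p under 0.05 in limma, the dim signalling inhibitor Socs1 at -0.20 (SE 0.077, unadjusted p 0.0400, adjusted p 0.995), while B2m, the light chain of MHC class I, lay at a mean of 0.

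Macrophages express the immunoproteasome strongly, and their markers were bright here. In the irradiated culture of experiment 1, Psmb8, Psmb9 and Psmb10 were each the lowest of the 6 arrays. The summed level of the 11 macrophage markers was also lowest there, at 122.43, with 127.06 and 128.79 in the other irradiated cultures and 123.97, 126.62 and 127.06 in the controls. In experiment 3 the sum was the highest of the 6 arrays in the irradiated culture, yet Psmb8, Psmb9 and Psmb10 were below their control there. All 11 markers were below their control in experiment 1 (background 56.4%). In experiments 2 and 3, 7 were above it each time, with 3 and 4 below it (background 50.1 and 48.5% below). The part of these cells in the immunoproteasome values was not tested.

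The promoters of these catalytic genes are shown because the constitutive and inducible forms are known to answer to different regulators. The RefSeq windows (GRCm38.p6, 250 bases before to 50 after a gene's start) held 36 of the 43 listed proteasome genes, matched by symbol, in 39 windows. Both strands were searched for the antioxidant response element bound by Nfe2l1 and Nfe2l2 (TGACNNNGC), the CCAAT box (CCAAT), the interferon-gamma activated site (TTCNNNGAA) and paired interferon response half-sites (GAAA, any 2 bases, GAAA), each counted on its own whether or not it overlapped another. Each sequence runs 5′ to 3′ on the gene's strand from 150 bases before the start to the base before it, with any of these matches in capitals.
Psmb5, chr14:54617996-54618145, minus strand: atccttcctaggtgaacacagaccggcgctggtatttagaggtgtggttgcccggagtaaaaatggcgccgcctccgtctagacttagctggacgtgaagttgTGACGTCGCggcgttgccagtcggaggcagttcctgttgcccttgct
Psmb6, chr11:70525207-70525356, plus strand: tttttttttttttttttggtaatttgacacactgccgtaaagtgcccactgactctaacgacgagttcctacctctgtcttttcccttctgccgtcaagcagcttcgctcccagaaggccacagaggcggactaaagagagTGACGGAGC
Psmb8, chr17:34198045-34198194, plus strand: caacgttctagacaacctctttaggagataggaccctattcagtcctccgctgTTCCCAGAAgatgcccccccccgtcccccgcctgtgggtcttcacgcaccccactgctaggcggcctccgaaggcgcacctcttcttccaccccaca
Psmb9, chr17:34187331-34187480, minus strand: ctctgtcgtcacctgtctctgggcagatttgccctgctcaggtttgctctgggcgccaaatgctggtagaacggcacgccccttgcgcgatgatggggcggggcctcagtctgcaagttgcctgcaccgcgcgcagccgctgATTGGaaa
The capitals mark an antioxidant response element in Psmb5 and Psmb6, an interferon-gamma activated site in Psmb8 and a CCAAT box, read on the other strand, in Psmb9. The same stretch of Psmb10 held no match. The catalytic Psmb7 had no window and was not searched, and only 4 of the 7 constitutive beta genes had one.

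How often a match was found in the proteasome windows, against all windows, varied with the motif. The antioxidant response element was in 6 of 39 windows (15.4%) against 12.4% of all 32851 windows, and its genes were Psmb5, Psmb6, Psmc6, Psmd9, Psmd12 and Psme4. The CCAAT box was in 14 (35.9% against 37.4%), among them those of 5 of 7 alpha genes. The interferon-gamma activated site was in 2 (5.13% against 8.30%), and the paired half-sites in 4 (10.3% against 3.44%), those of Psmb3, Psmd4, Psmd9 and Psme1. The genes with an antioxidant response element ran from a mean of -0.13 for Psmb5 to -0.023 for Psmd9. A match describes letters and says nothing of binding.

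The ATPases, which unfold substrates at the mouth of the core, had a median of -0.025, with 5 of 6 means below 0. The median was 0.0075 when all probe sets of each gene were averaged and -0.010 without experiment 3. Psmc2, the brightest, read 11.19, 11.26 and 11.41 in the controls and 11.26 in each irradiated culture. Psmc5, the dimmest, read 10.59, 10.57 and 10.46 in the controls and 10.49, 10.45 and 10.60 after irradiation. Both lay on either side of 0 among the experiments, as did Psmc1 and Psmc3, with means of -0.023 and -0.0033. Psmc6 read 10.75, 10.77 and 10.83 in the controls and 10.76, 10.73 and 10.69 after irradiation, with overlapping groups and a mean of -0.057 (SE 0.080).

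Psmc4 had the widest difference of the ATPases in a single experiment. It read 10.78, 10.96 and 10.97 in the controls and 11.13, 10.96 and 10.87 after irradiation, which gave 0.35 in experiment 1 and a mean of 0.083 (SE 0.11). A second probe set of Psmc4, at a level of 10.20, stood at -0.14 in that experiment and at a mean of -0.047, so the 2 probe sets disagreed.

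All 11 other regulatory subunits had a mean below 0, with a median of -0.053 and a range from -0.19 to -0.0033. Without experiment 2 the median was -0.020 with 7 of 11 below 0, without experiment 1 it was -0.070 with 8, and without experiment 3 it was -0.095 with 11. With centred arrays 10 of 11 were below 0. In experiment 2 10 of 11 were below their control (median -0.13) and in experiment 3 only 5 (median 0.020). Psmd3, a scaffold subunit of the lid, read 9.44, 9.66 and 9.65 in the controls and 9.44, 9.28 and 9.47 after irradiation. It was level in experiment 1 and lower by 0.38 and 0.18 in the others, a mean of -0.19 (SE 0.097, 95% interval -0.42 to 0.045, unadjusted p 0.0972 in limma). Without experiment 2 that mean was -0.090, and without experiment 1 it was -0.28.

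Psmd11, another lid subunit, read 10.97, 11.06 and 11.00 in the controls and 10.92, 10.82 and 10.95 after irradiation. The groups did not overlap, and the mean difference was -0.11 (SE 0.083). Its 3 next brightest probe sets, at levels of 9.49 to 10.09, had means of -0.080, -0.10 and -0.13, close to the first. Psmd14, which cuts ubiquitin chains off the substrate, was the brightest of the group at 11.81, 11.84 and 11.78 in the controls and 11.81, 11.72 and 11.74 after irradiation (mean -0.053, SE 0.078). Psmd1 (-0.10) and Psmd13 (-0.097) were lower in all 3 experiments too, although their groups overlapped. Psmd12 had a mean of -0.067, Psmd6 of -0.037, the ubiquitin receptor Psmd4 of -0.020, Psmd2 of -0.017, Psmd7, the partner of Psmd14, of -0.013, and Psmd8 of -0.0033.

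The assembly chaperones included the member with the largest positive mean. Psmd10, also known as gankyrin, read 8.77, 8.53 and 8.47 in the controls and 8.60, 8.81 and 8.74 after irradiation. It was lower by 0.17 in experiment 1 and higher by 0.28 and 0.27 in the others, a mean of 0.13 (SE 0.11). Without experiment 1 its mean was 0.28, the 1 proteasome gene with an unadjusted p under 0.05 in limma under that setting (0.0346, adjusted p 0.926). Psmd5 read 8.93, 8.86 and 8.77 in the controls and 8.85, 8.80 and 8.80 after irradiation (mean -0.037, SE 0.078). Psmd9 read 8.61, 8.46 and 8.49 in the controls and 8.51, 8.47 and 8.51 after irradiation (mean -0.023). For both the groups overlapped.

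The 3 activators with a probe set of their own, read from the brightest, were below their controls in experiments 1 and 2 and not in experiment 3. Psme1, an interferon-inducible subunit of a cap that serves antigen processing, read 9.66, 9.77 and 9.70 in the controls and 9.55, 9.56 and 9.70 after irradiation, a mean of -0.11 (SE 0.083). The probe set shared by its partner Psme2 and by Psme2b read 11.06, 11.07 and 11.01 in the controls and 11.01, 10.83 and 10.94 after irradiation, with a mean of -0.12 (SE 0.091). It was lower in all 3 experiments and its groups touched at 11.01. Psme3, the nuclear activator, read 7.96, 8.05 and 7.76 in the controls and 7.85, 7.82 and 7.93 after irradiation (mean -0.057, SE 0.10). Psme4, a large nuclear activator, read 10.40, 10.40 and 10.22 in the controls and 10.31, 10.30 and 10.33 after irradiation (mean -0.027, SE 0.085). Its 2 next brightest probe sets, at levels of 10.20 and 8.11, were above their control in experiment 1, by 0.05 and 0.20. Both were below it in experiment 2. In Psme3 and Psme4 the control of experiment 3 was the lowest of the 6 arrays, and without that experiment the means were -0.17 and -0.095.

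Read array by array, the pattern changed with the subunit group. The median deviation of the 42 genes from their own 6-array mean was 0.023, 0.048 and 0.0050 in the controls of experiments 1 to 3 and -0.015, -0.037 and -0.022 in the irradiated cultures. Every control thus lay above every irradiated array, by amounts under 0.09 log2 units, in arrays not centred on their medians. In experiment 1 centring removed an irradiated-minus-control shift of -0.07. That shift is wider than the gap between the 2 arrays of experiment 1, so with centred arrays the order does not hold there. The highest and the lowest array were the 2 of experiment 2. In that experiment all 7 measured fat cell markers were below their control too (background 50.1%). Their median was -0.55 there, against 0.090 and 0.030 in experiments 1 and 3, and their part in the proteasome values was not tested. The mesenchymal markers stood on the other side of 0, with 8 of 10 means above it (background 45.2%) and a median of 0.098. Their medians were -0.010, 0.18 and 0.10 in experiments 1 to 3. Of the 10 markers 3, Itgb1, Nt5e and Pdgfrb, were higher in all 3 experiments (background 8.23%). Nt5e, a surface nucleotidase, had a mean of 0.21 with an unadjusted p of 0.0352 in limma (adjusted p 0.995). No other marker of the 10 was under 0.05 (background 3.31%). The part of these markers in the proteasome values was not tested either. The control of experiment 3 was high for the alpha subunits (0.047) and the immunoproteasome and thymoproteasome group (0.11), and low for the activators (-0.11) and the assembly chaperones (-0.065), and it is the array with the deviating RNA quality values.

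**Figure D4:**
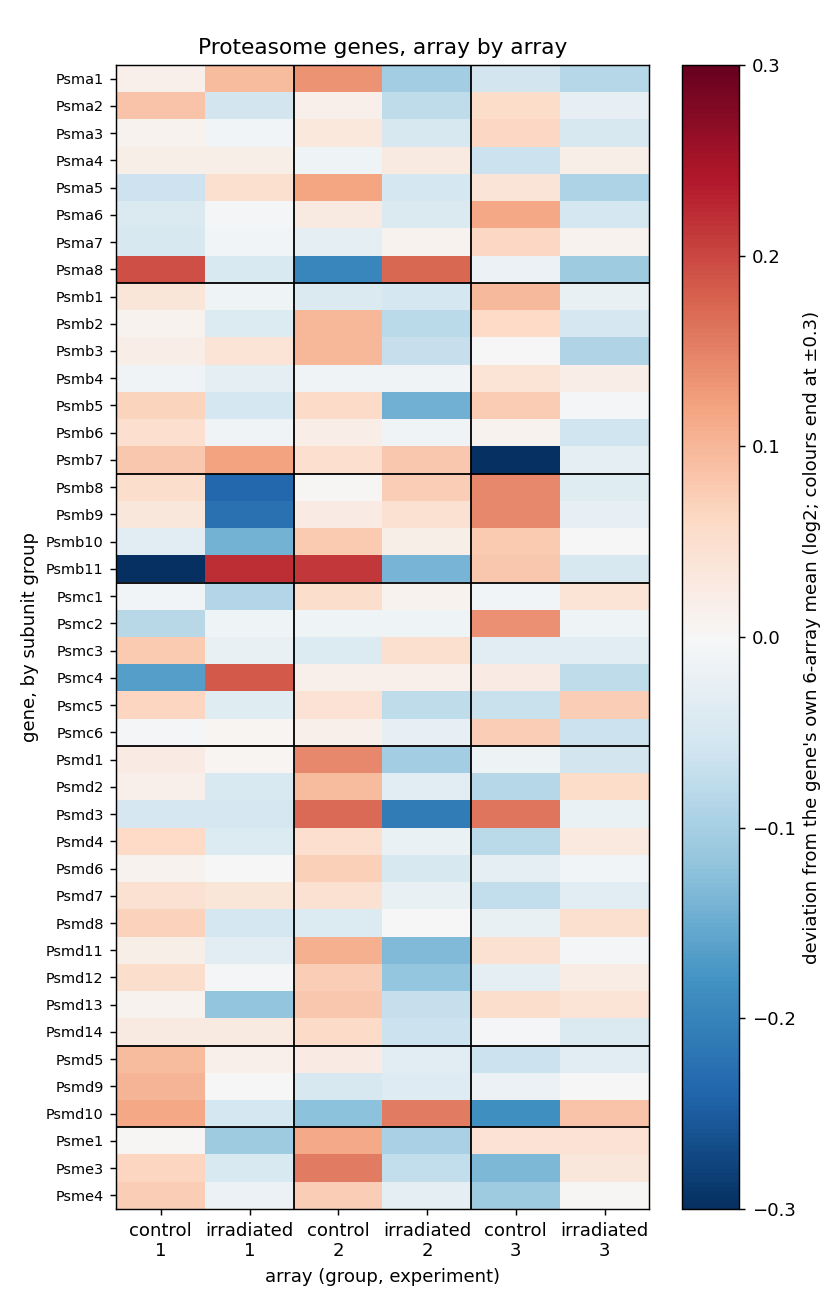
Deviation of each proteasome gene from its own 6-array mean (log2, red above and blue below, colours ending at 0.3) on the 3 pairs of arrays, with black lines between subunit groups and between experiments. The irradiated culture of experiment 2 is blue for most subunits of the core and of the regulatory particle and its control red, while the control of experiment 3 is red for Psmb8 and Psmb9 and blue for Psmb7 and Psmd10.

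Other probe sets of the same genes gave a mixed picture. Of the 42 genes 22 had more than 1 probe set, with 46 further ones, and 25 of the 46 had a mean of the same sign as the brightest. Among the 16 within 2 log2 units of the brightest, 12 had the same sign. Over all 88 probe sets 26 means were above 0 (29.5%), where 48.2% of all tested probe sets were. limma called 0 of 88 (background 0%), with 1 at an unadjusted p under 0.05 (background 3.77%), a dim probe set of Psmd11 (level 5.22) at 0.26, opposite to the brighter ones. Bright probe sets of 1 gene also parted within an experiment. For Psmd6 they stood at -0.01 and 0.33 in experiment 1 and at 0.02 and -0.32 in experiment 3, at levels of 11.47 and 11.32. For Psmb4 they stood at -0.02 and 0.29 in experiment 1, at levels of 11.97 and 11.79.

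Among genes that build, assist or control the proteasome, 0 of the 31 measured had an unadjusted p under 0.05 in limma (background 3.31%). The 6 assembly factors and inhibitors, Psmg1 to Psmg4, the maturation factor Pomp and the inhibitor Psmf1, had a median of -0.013, and the largest means were -0.043 for Psmg2 and -0.027 for Psmg3. The 7 associated proteins, deubiquitinases and ligases had a median of -0.017, with the ubiquitin ligases Ube3a at -0.14 (SE 0.094) and Ube3c at -0.10 (SE 0.080). The 8 ubiquitin-activating, shuttle and Vcp-complex genes had a median of -0.0083, with Nploc4, a cofactor of the unfoldase Vcp, at -0.16 (SE 0.080) and Ubqln4 at -0.067.

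The 10 genes listed for transcriptional control, not all of them transcription factors, had a median of -0.053, with 6 means below 0 (background 53.3%). Their medians were -0.025, 0 and -0.095 in experiments 1 to 3. The proteasome genes, also at -0.053, had -0.055, -0.070 and -0.040. Nfe2l1, the regulator of proteasome genes, read 10.24, 10.18 and 10.22 in the controls and 10.11, 10.06 and 9.92 after irradiation. Every irradiated array lay below every control (background 5.36%), by 0.13, 0.12 and 0.30 within the experiments. The mean of -0.18 (SE 0.082, 95% interval -0.38 to 0.013, unadjusted p 0.0631, adjusted p 0.995) did not pass in limma. Of the 10 listed genes 3, Nfe2l1 among them, were lower in all 3 experiments (background 12.8%) and 1 was higher in all 3 (background 8.23%). Stat3 had a mean of -0.20 (SE 0.099). Nfe2l2, the related stress regulator, lay at -0.0033 (SE 0.078).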

How the data were processed

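Per the submitters' processing notes, the authors used RMA, the affy package and limma, in versions not given in the sources used here. The deposited values are taken as log2 RMA values per probe set, background corrected, quantile normalized and rounded to 2 decimals. No label states the log base, and the range of 1.73 to 14.53 is that of RMA log2 values. Quantile normalization hides a change common to all transcripts, and RMA tends to understate changes of dim probe sets. Present or absent calls were not made, and array batches were not analysed here.

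Of 45101 probe sets 64 controls were left out. The platform annotation gave 1 symbol to 34945, several to 932 and none to 9160. All 42 proteasome symbols matched a current gene table by Entrez identifier. The probe set with the highest mean stood for each of 18193 genes, with no filter on dim ones.

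limma 3.58.1 in R 4.3.3 (lmFit, eBayes) was fitted over all genes, irradiated minus control, with the experiment as a block, 2 residual and 4.66 prior degrees of freedom, Benjamini-Hochberg adjustment over all genes and moderated 95% intervals. Experiments pair the arrays because the series text gives every irradiated culture its own control. Same-numbered arrays' deviations from their group means correlated across all genes at 0.15, -0.090 and -0.012 in experiments 1, 2 and 3. Across the proteasome genes alone the correlations were -0.43, -0.70 and -0.015. For these genes the paired arrays of experiments 1 and 2 thus tended to deviate in opposite directions. The script was tested on simulated data. Members and lists were chosen with earlier results of these data known. Every member is named with its level. Array values are given for the catalytic subunits, the activators, and the brightest, the dimmest and the 2 members of largest mean of each group. List genes are named at an unadjusted p under 0.05 in limma, or otherwise the 2 with the largest mean. Psmd11's and other further probe sets, Tap1, Tap2, B2m, Nfe2l2 and the markers named were chosen after their values were seen.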

Additional observations from a re-analysis of the deposited data

How the results depend on the processing

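Results were recomputed under 12 alternatives, which gave 98 values, of which 91 kept their call or, for medians, moved by less than the SD between the experiments' medians. They covered a fit with no replicate block, a random block, each experiment left out, the mean of a gene's probe sets, genes at or above the median level, centred arrays, eBayes with a trend, an ordinary paired test, a test per probe set and, chosen after seeing the data, the brightest probe set whose name does not end in _x_at or _s_at. Proteasome genes called remained 0 under each, and the lowest adjusted p among them over these alternatives was 0.926 in limma. At an unadjusted p under 0.05 limma gave 0 to 1 proteasome genes with an experiment left out, and the ordinary test gave 3. The ordinary test called 8 of all genes, none of them a proteasome gene. It has 2 residual degrees of freedom, and values rounded to 2 decimals can give the same difference in all 3 experiments. Its p-values can then be extremely small, and its smallest adjusted p was 2.1e-25, so these 8 calls say little. With no replicate block limma called 0 of 42, with 0 at an unadjusted p under 0.05. Medians cannot change under that setting, because each experiment holds 1 array of each group, so the median difference was again -0.053. It was below 0 under each of the 8 alternatives that recompute it, that setting included. It ran from -0.063 to -0.028 with an experiment left out and was -0.033 with probe sets averaged. The median of the ATPases ran from -0.028 to -0.010 with an experiment left out and was 0.0075 with probe sets averaged. Averaging moved Psmc6 from -0.057 to 0.051 and Psmc1 from -0.023 to 0.020, while Psmc4 moved down from 0.083 to 0.018. A dim probe set of Psmc6 (level 6.80) had a mean of 0.24, and why it parted from the brightest was not tested. The activator median ran from -0.16 to 0.010 with an experiment left out, against -0.057. The assembly chaperone median ran from -0.045 to 0.015 and was 0.042 with probe sets averaged, against -0.023. These changes of sign count among the 91 values kept, because the SD between experiments was 0.16 for the activators and 0.070 for the assembly chaperones. The median of the immunoproteasome and thymoproteasome group was -0.065 with probe sets averaged, against -0.11. The intervals' median half-width of 1.15-fold is an error before adjustment, and a call over all genes on these 6 arrays needs a larger change.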
